A study of Mus musculus with 8 samples.

Results

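Transcripts of 8 genes that mark adipose progenitors and fibroblasts (Pdgfra, Dpp4, Pi16, Ly6a, Cd34, Dcn, Lum and Dlk1) were followed in white adipose tissue of female wild-type C57BL/6J mice, an inbred laboratory strain. The genes were taken by name and not by a rule on their values, though with earlier results of these data known. They are 8 of the 37046 features in the data. All 8 passed the filter on low counts, as did 15184 features in all. The control mice received phosphate-buffered saline and the treated mice 50 mg/kg of endostatin, both by tail vein, and tissue was collected 2 h later, during the day, with food withheld after the injection. Endostatin is a piece cut from the end of a basement membrane collagen and is known for slowing the growth of blood vessels. Each group had 4 libraries of ribosomal RNA-depleted, strand-specific total RNA, with replicates 1 and 2 in batch 1 and replicates 3 and 4 in batch 2, as the labels name the batches. The labels speak of 4 female mice and do not say which mouse each library came from. The p-values below therefore measure only how far these samples scatter, and that scatter may be technical. The labels state no age. The question of the comparison is the response of fat to an acute dose of endostatin, read here through the cells around the adipocytes.

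White adipose tissue holds, beside its fat-laden adipocytes, a stroma of fibroblast-like cells from which new adipocytes are made. In mouse fat these cells are commonly sorted by Pdgfra, Ly6a (the Sca-1 antigen) and Cd34. Cells with Dpp4 and Pi16 lie in the connective tissue sheath around the fat and are regarded as early, uncommitted progenitors, while Dlk1 (Pref-1) is the classic preadipocyte gene that is lost as adipocytes form. Dcn and Lum encode proteoglycans that these cells lay down on collagen fibrils. Cd34 and Ly6a are also made by endothelial cells.

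The libraries held 15826783 to 19221886 estimated counts in the control group and 17197721 to 23786594 in the endostatin group. A count of 0 would allow up to 3 counts, or 0.126 to 0.190 CPM (counts scaled to a common library size), and every one of the 8 genes was above that in every library. The labels call the tissue epididymal although the mice are female, and 11 of 12 epididymis and testis markers had under 1 count over the 8 libraries, the exception being Rnase10. All 11 adipocyte markers were detected, with a summed level of 39939 TPM (a level per transcript length, scaled to a common total) in control 3 and 59749 to 81721 TPM in the other libraries. Control 3 and endostatin 4 stood apart in 13 oviduct and uterus markers, with summed levels of 774.9 and 508.3 TPM against 115.6 to 164.8 TPM elsewhere. Controls 1 and 4 stood apart in 10 skeletal muscle markers, with 234.1 and 461.1 TPM against 35.2 to 108.3 TPM elsewhere. Endostatin 4 was also highest in 12 hepatocyte markers, at 4103 TPM against 1639 to 2847 TPM in the other libraries, sums in which Trf alone took 1619 to 3075 TPM. The label text of endostatin 4 points to the same raw reads as that of endostatin 3, yet their values differ (Pdgfra at 303 and 195 CPM), and the labels were kept. For the 8 genes over both batches, and for some lists, fold changes without some of these libraries are also given below. Estimates within batches, ratios to Adipoq and most other marker lists are given with all libraries only.

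The forms of Cd34 are shown first because they set what its counts stand for: the gene makes a full-length protein and a form with a shortened cytoplasmic tail, and both were present. In the transcript models of GENCODE M21 (GRCm38), which carry the sequences below, the coding sequences part at the end of a shared exon. The last 24 shared bases are in lower case and the bases that follow in each form are in capitals, 5′ to 3′.
Cd34-201: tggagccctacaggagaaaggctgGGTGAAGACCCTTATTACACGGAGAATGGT
Cd34-202: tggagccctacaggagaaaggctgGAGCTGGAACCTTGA
Cd34-201 goes on for 183 coding bases after the shared exon and has a coding length of 1146 bases. Cd34-202 runs for 12 coding bases into the stop codon at the end of the printed line and has a coding length of 975 bases, which is 171 fewer. Cd34-201 held 59.3% ± 1.4 of Cd34 TPM in the control libraries and 59.2% ± 0.9 in the endostatin libraries (SD, n = 4 each). Cd34-202 held 29.5% ± 1.2 and 31.7% ± 1.3 (SD, n = 4 each), a gap larger than the SD of either group. Cd34-203, a form annotated for nonsense-mediated decay with 157 reads over all libraries, held 4.2% ± 0.4 and 2.4% ± 0.7 (SD, n = 4 each). These shares are estimates that Salmon made from reads that the forms mostly share, and no test was run on them.

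The promoters of Dpp4 and Pi16, the 2 genes that mark the early progenitors, are printed because both had among the highest estimates of the 8 genes in batch 2 (below). RefSeq promoters (GRCm38.p6), 250 bases before to 50 after the start, were found for 5 of the 8 genes: Pdgfra, Dpp4, Pi16, Cd34 and Dlk1; the others are Ly6a, Dcn and Lum. Capitals mark TATAAA in the Dpp4 promoter, which lies on the minus strand at chr2:62412182-62412481, and CCAAT in the Pi16 promoter, which lies on the plus strand at chr17:29318632-29318931.
Dpp4: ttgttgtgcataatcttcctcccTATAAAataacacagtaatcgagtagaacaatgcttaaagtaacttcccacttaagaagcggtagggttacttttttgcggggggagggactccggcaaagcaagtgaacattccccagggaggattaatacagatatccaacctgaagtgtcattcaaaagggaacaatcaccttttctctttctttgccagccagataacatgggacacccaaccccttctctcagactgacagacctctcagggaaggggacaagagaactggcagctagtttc
Pi16: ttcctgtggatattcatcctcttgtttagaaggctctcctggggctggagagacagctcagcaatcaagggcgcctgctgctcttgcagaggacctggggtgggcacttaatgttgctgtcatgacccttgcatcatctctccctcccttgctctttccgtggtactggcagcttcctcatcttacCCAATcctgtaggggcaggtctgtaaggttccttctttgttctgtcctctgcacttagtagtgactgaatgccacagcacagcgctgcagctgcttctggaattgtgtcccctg
Of the 4 motifs searched on both strands, TATAAA occurred only in Dpp4 and CCAAT only in Pi16 among the 5 promoters. GGGCGG was in none of the 5, and CANNTG was in those of Pdgfra, Dpp4 and Pi16. Among 32851 promoters of the same length, 13.62% held TATAAA, 37.41% CCAAT, 35.66% GGGCGG and 72.31% CANNTG. The GC content was 45.33% for Dpp4 and 53.33% for Pi16, with a median of 52.67% over all promoters. These are matches of letters and say nothing of a factor's binding.

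Per transcript length, the matrix gene Dcn was far above the others and Dlk1 far below them. Mean TPM over the 8 libraries was 1248 for Dcn, 203 for Ly6a, 138 for Cd34, 113 for Lum, 75.7 for Pdgfra, 73.7 for Pi16, 39.4 for Dpp4 and 3.47 for Dlk1. Adipoq, the adipocyte hormone adiponectin, stood at 3827 TPM. Dcn lay above 99.4% of the tested genes by mean TPM and Dlk1 above 19.6%, with the rest between 72.8% for Dpp4 and 95.5% for Ly6a. Dcn exceeded Ly6a in 8 of 8 libraries without overlap of their ranges, with a median ratio of 6.33. Dpp4 exceeded Dlk1 in the same way, with a median ratio of 12.0. The neighbours between them were not as clear. Ly6a over Cd34, Cd34 over Lum and Lum over Pdgfra each held in 7 of 8 libraries with overlapping ranges. Pdgfra and Pi16 could not be ordered, with Pdgfra higher in 5 of 8 libraries and a median ratio of 1.02. Pi16 exceeded Dpp4 in 8 of 8 libraries although their ranges overlapped.

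**Figure D1:**
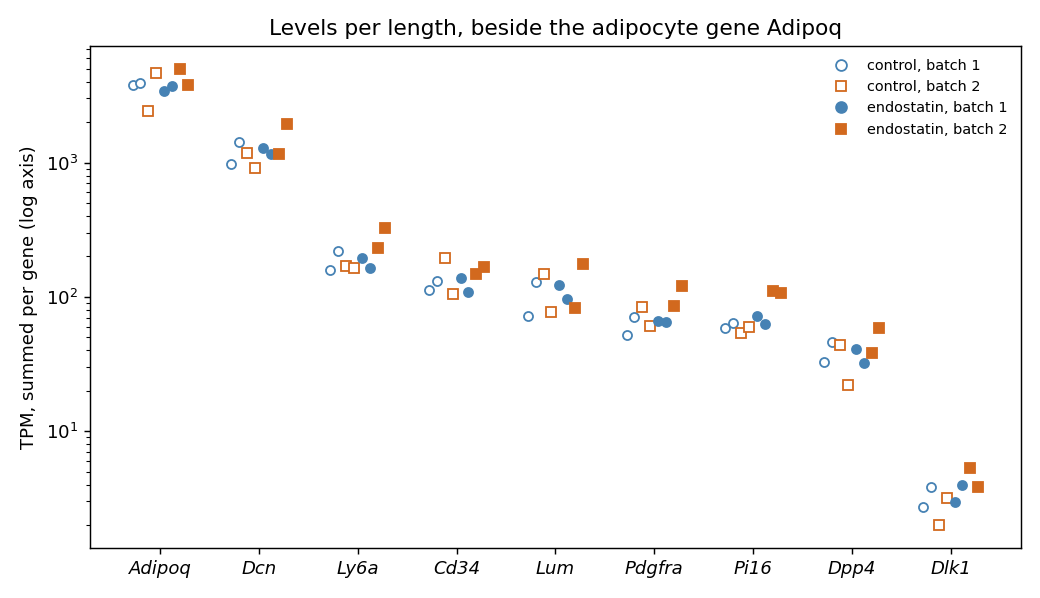
Summed TPM per gene (log axis) for Adipoq and the 8 genes in each library, open symbols for control and filled for endostatin, circles for batch 1 and squares for batch 2. Dcn is above and Dlk1 below the other members in every library, while Pdgfra and Pi16 overlap.

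A gene's TPM is a sum over its transcripts, and short transcripts with few reads weigh heavily in it. Dpp4-201, the full-length form, took 94.7% of Dpp4 reads but 49.3% to 64.1% of Dpp4 TPM. In control 2, 6.549 reads on the 483-base Dlk1-209 made up 61.1% of Dlk1 TPM. Taking only the transcript with the most reads per gene, the order became Dcn, Lum, Ly6a, Cd34, Pdgfra, Dpp4, Pi16 and Dlk1. Comparisons between libraries below therefore use CPM, scaled by TMM factors, and not TPM unless stated.

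Pdgfra encodes the alpha receptor for platelet-derived growth factors, a tyrosine kinase found across the stroma. It stood at 141, 202, 202 and 158 CPM in controls 1 to 4 and at 182, 184, 195 and 303 CPM in endostatins 1 to 4. The groups overlapped, and endostatin 4 was higher than any other library. Endostatin minus control on the log2 scale was 0.28 ± 0.19 (SE; 95% interval -0.15 to 0.71; unadjusted p = 0.176), and without endostatin 4 it was 0.10. Its ligands and sister receptor were close to level. Of the 5 other PDGF genes, 3 had positive and 2 negative log2 fold changes, and none passed the test. Pdgfrb, the beta receptor, was at 0.08 ± 0.10 and the ligand Pdgfa at -0.06 ± 0.20.

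Dpp4 encodes a membrane peptidase, CD26, that clips dipeptides from the ends of hormones and chemokines. It stood at 62.0, 77.1, 61.9 and 42.3 CPM in the controls and at 66.8, 52.6, 75.6 and 94.2 CPM in the endostatin libraries. Control 4 was lowest and endostatin 4 highest. Its log2 fold change was 0.24 ± 0.23 (SE; interval -0.29 to 0.77; unadjusted p = 0.321), and it was 0.03 without controls 1 and 4. Fap, a related stromal peptidase that lies near Dpp4 on chromosome 2 in RefSeq's gene order, with Gcg between them, stood at 10.5 ± 2.6 CPM in controls and 12.9 ± 3.2 CPM in endostatin libraries (SD, n = 4 each). Fap had a log2 fold change of 0.31 ± 0.23. Of the 5 relatives of Dpp4 tested, 2 were positive and 3 negative, and none passed the test.

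Ly6a encodes a small lipid-anchored surface protein. It stood at 65.4, 84.2, 57.4 and 65.3 CPM in the controls and at 69.9, 62.7, 85.2 and 118 CPM in the endostatin libraries. The groups overlapped and endostatin 4 was again highest. Ly6a had a log2 fold change of 0.28 ± 0.21 (SE; interval -0.21 to 0.76; unadjusted p = 0.223), and without control 3 and endostatin 4 it was 0.01. Ly6a sits among related Ly6 genes on chromosome 15, and Salmon has to divide any reads that fit several of them. How many reads did so was not measured, so the certainty of its level is unknown. Of the 4 relatives tested, 1 was positive (Ly6e, 0.13 ± 0.09) and the lowest was Ly6c1 (-0.09 ± 0.14), and none passed the test.

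Cd34 encodes a heavily sugar-coated surface protein of progenitors and vessels. It stood at 161, 181, 223 and 145 CPM in the controls and at 182, 148, 194 and 213 CPM in the endostatin libraries. It varied least of the 8 genes, 1.54-fold from the lowest to the highest library, and it was the single member whose highest library was a control (control 3). The log2 fold change was 0.05 ± 0.15 (SE; interval -0.30 to 0.40; unadjusted p = 0.768), and its sign turned without endostatin 4 (-0.0045), without control 4 (-0.08) and without controls 1 and 4 (-0.13). The related sialomucins Podxl and Podxl2 had log2 fold changes of 0.07 ± 0.12 and 0.34 ± 0.17, and neither passed the test. The 10 endothelial markers had a summed level of 508.3 to 632.8 TPM, with the controls at 508.3 to 620.8 TPM and the endostatin libraries at 567.1 to 632.8 TPM.

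Pi16 encodes a secreted or membrane-anchored protein of the CAP family and, with Dpp4, marks the early progenitors. It stood at 87.1, 88.5, 58.3 and 80.5 CPM in the controls and at 95.4, 83.9, 130 and 125 CPM in the endostatin libraries. Endostatins 1, 3 and 4 were above every control, and endostatin 2 was inside their range. The log2 fold change was 0.45 ± 0.19 (SE; interval 0.02 to 0.89), with an unadjusted p of 0.0435 and an adjusted p of 1.00 by edgeR's quasi-likelihood test with Benjamini-Hochberg adjustment over all genes tested. It was the single member with an unadjusted p under 0.05, where 3.19% of all tested genes had one. Leaving out control 3 alone brought it to 0.26, and leaving out control 3 with endostatin 4 to 0.25. Of its transcripts, Pi16-203, a form with a retained intron, held 25.4% ± 4.9 of Pi16 TPM in controls and 21.7% ± 5.1 in endostatin libraries (SD, n = 4 each).

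Dcn encodes decorin, the proteoglycan that coats collagen fibrils and spaces them. It stood at 976, 1353, 922 and 862 CPM in the controls and at 1154, 1063, 1020 and 1652 CPM in the endostatin libraries. The groups overlapped, since control 2 was above all endostatin libraries but the last. For Dcn the log2 fold change was 0.26 ± 0.23 (SE; interval -0.27 to 0.78; unadjusted p = 0.292), and it was 0.03 without endostatin 4 and 0.03 without control 3 and endostatin 4. Dcn-201 and Dcn-202, forms of equal length, held 75.6% ± 1.5 and 22.0% ± 1.2 of Dcn TPM in controls and 72.9% ± 1.8 and 24.8% ± 1.3 in endostatin libraries (SD, n = 4 each), with no test run.

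Lum encodes lumican, the related proteoglycan, from a single transcript model next to Dcn on chromosome 10. It stood at 104, 178, 171 and 108 CPM in the controls and at 163, 131, 108 and 223 CPM in the endostatin libraries. The libraries of each group were split, with low values in controls 1 and 4 and in endostatin 3. Lum had a log2 fold change of 0.16 ± 0.27 (SE; interval -0.48 to 0.79; unadjusted p = 0.588), and its sign turned without endostatin 4 (-0.11) and without controls 1 and 4 (-0.16). The next genes along the chromosome, Kera and Epyc, belong to the same family and had 4 and 32 counts over all libraries, under the filter. Of the 9 other small leucine-rich proteoglycans tested, 8 were positive (median 0.14 on the log2 scale), led by Prelp at 0.33 ± 0.24, and none passed the test. Without control 3 and endostatin 4, 4 of 9 were positive with a median of -0.03.

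Dlk1 encodes an imprinted transmembrane relative of the Notch ligands that holds preadipocytes back from differentiating. It had 29 to 85 estimated counts per library, which limits its precision. It stood at 2.85, 1.86, 1.60 and 3.01 CPM in the controls and at 2.62, 3.63, 4.53 and 2.92 CPM in the endostatin libraries. The groups overlapped. Dlk1 had the highest estimate of the 8 genes and the widest interval, a log2 fold change of 0.55 ± 0.30 (SE; interval -0.16 to 1.25; unadjusted p = 0.110). Among its relatives and imprinted neighbours only Dio3 passed the filter, at 0.21 ± 0.72. Dlk2 and Rtl1 had 3 and 6 counts over all libraries, and Meg3 and Rian were not analysed here.

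**Figure D2:**
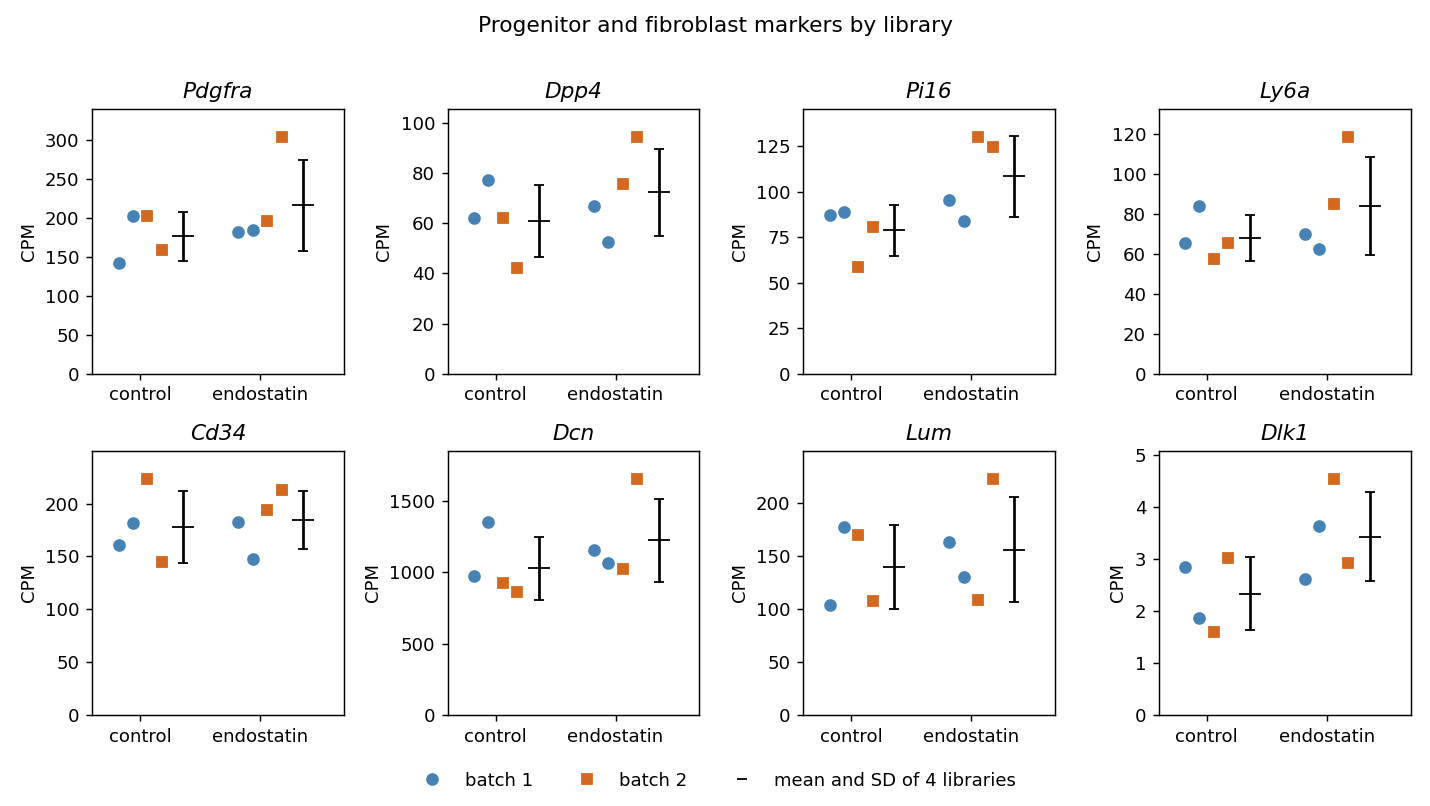
CPM of each gene by library, controls left and endostatin right, blue circles for batch 1 and orange squares for batch 2, with the mean and SD of the 4 libraries of each group beside the points. The groups overlap for all 8 genes, and the orange endostatin points of Dpp4, Pi16, Ly6a and Dcn are above the orange control points.

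Read as a group, the 8 genes all had positive log2 fold changes of endostatin against control, with a median of 0.27. Of all tested genes 46.6% were positive, with a median of -0.01; on the TPM scale 58.7% were positive. By edgeR's quasi-likelihood test with Benjamini-Hochberg adjustment 0 of the 8 genes were called at 0.05, where the background was 0% of all tested genes. At an unadjusted p under 0.05, 1 of 8 was counted by edgeR (Pi16), 1 by DESeq2 and 0 by limma-voom with sample quality weights. The CPM ranges of the groups were separate for 0 of 8 genes, against 1.64% of all tested genes. Adipoq had similar means of 2175 ± 695 CPM in controls and 2195 ± 238 CPM in endostatin libraries (SD, n = 4 each). Control 3, at 1142 CPM, lowered the control mean, with controls 1, 2 and 4 at 2458, 2446 and 2654 CPM. Endostatins 1 to 4 stood at 2072, 2266, 2494 and 1948 CPM. The log2 fold change of Adipoq was 0.02 ± 0.28 (SE; interval -0.61 to 0.66), which does not show that Adipoq was unchanged. It was -0.18 within batch 1 and 0.23 within batch 2. The positive sign held for 8 of 8 genes without control 3 and endostatin 4, where the median was 0.11. It held for 6 of 8 without endostatin 4 (median 0.09), for 7 of 8 without control 4 (median 0.17) and for 6 of 8 without controls 1 and 4 (median 0.09). In bulk tissue, more cells of a type and more RNA per cell cannot be told apart.

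**Figure D3:**
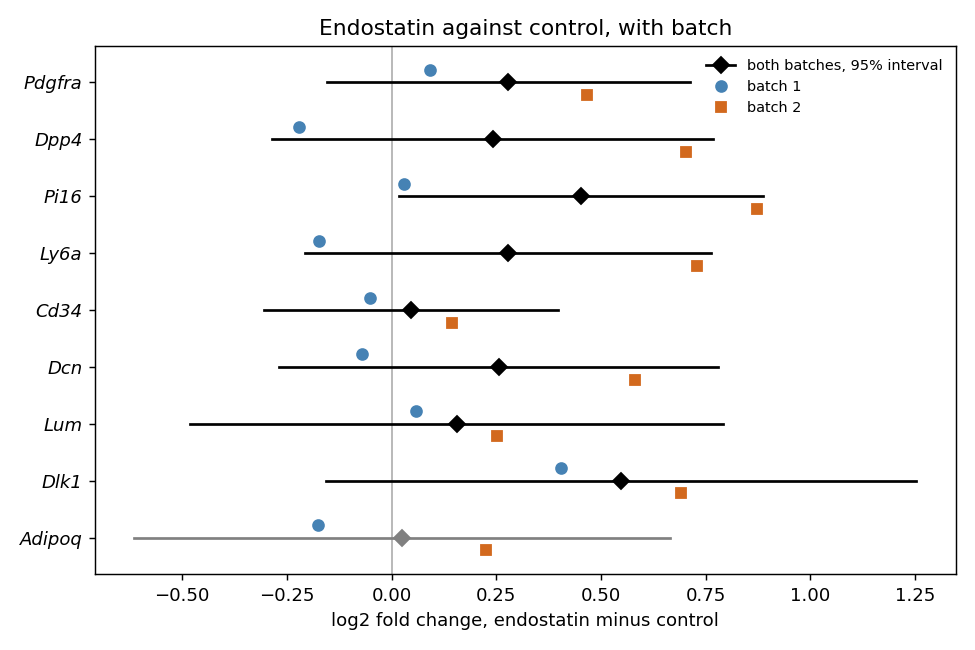
Log2 fold change of endostatin against control for the 8 genes and Adipoq; diamonds and lines give the estimate with its 95% interval over both batches, and circles and squares the estimates within batch 1 and batch 2. All estimates over both batches are positive, the interval of Pi16 alone leaves out 0, and every batch 2 estimate lies to the right of the batch 1 estimate.

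Set out by batch, the estimates lay on both sides of 0 in batch 1, from -0.22 for Dpp4 to 0.41 for Dlk1, and above 0 in batch 2. Within batch 1 the 8 genes had a median log2 fold change of -0.01, with 4 positive, where 50.6% of all tested genes were positive. Within batch 2 their median was 0.64, with 8 positive, where 46.8% of all tested genes were. Pi16 was at 0.03 in batch 1 and 0.87 in batch 2, Ly6a at -0.17 and 0.73, Dpp4 at -0.22 and 0.70, and Dcn at -0.07 and 0.58. Dlk1 was at 0.41 and 0.69, Pdgfra at 0.09 and 0.47, Lum at 0.06 and 0.25, and Cd34 at -0.05 and 0.14. In batch 2 both endostatin libraries were above both controls in CPM for Dpp4, Pi16, Ly6a and Dcn, 4 of 8 genes against 14.7% of all tested genes. The genes depended on the unit. By TPM, endostatin 3 was below control 3 for Dpp4 (38.4 against 43.7) and Dcn (1155 against 1169). Pdgfra and Dlk1 instead had both endostatin libraries of batch 2 above both controls by TPM. In batch 1 both endostatin libraries were above both controls in CPM for 0 of 8, against 16.1% of all tested genes.

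The interaction term tested this difference. It was 0.84 ± 0.24 for Pi16 (edgeR, unadjusted p = 0.00941), 0.90 ± 0.28 for Ly6a (unadjusted p = 0.0153) and 0.92 ± 0.33 for Dpp4 (unadjusted p = 0.0270). The other 5 genes had an unadjusted p of 0.162 or more. These 3 of 8 stand beside 3.47% of all tested genes, and after adjustment 0 of 8 were called, with a background of 0% and an adjusted p of 0.997 for each by edgeR's quasi-likelihood test. The count was 1 of 8, Pi16, without control 2 or without endostatin 2, where Dpp4 and Ly6a missed 0.05; over all settings it ran from 1 to 4. Without control 3 and endostatin 4, which left 1 library per group in batch 2 whose spread is assumed to be like that of the others, the term was 1.06 ± 0.28 for Dpp4, 0.66 ± 0.18 for Pi16 and 0.56 ± 0.25 for Ly6a, which then missed an unadjusted p of 0.05 (edgeR, unadjusted p = 0.0689). On the TPM scale the median of this term over all genes moved to -0.12, and that of the 8 genes was 0.59.

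Markers of other cell types varied beside these genes. The 10 macrophage markers had a summed level of 1051 and 1145 TPM in controls 3 and 4 and 2028 and 2088 TPM in endostatins 3 and 4, against 935.4 to 1394 TPM in batch 1. Within batch 2, 10 of 10 were positive (median 0.82), and within batch 1, 5 of 10 (median -0.02). For 5 of the 10 the interaction term had an unadjusted p under 0.05 by edgeR, where 0 were called, against 1 by DESeq2. The 10 mesothelial markers summed to 888.6 TPM in control 3, 713.6 in endostatin 4 and 553.2 in endostatin 3, against 279.5 to 431.4 in the others. Those sums lean on the keratin Krt19, at 340.8 TPM in control 3; within batch 1 the list had a median log2 fold change of -0.07, and within batch 2 of 0.53. For Msln, Upk3b and Upk1b, 3 of its 10 genes, the interaction term had an unadjusted p under 0.05, and none was called. Mast cell markers had medians of 0.04 and 0.88 in the same order, and 5 of 5 tested were positive in the fit over both batches. The 9 pericyte and smooth muscle markers were highest in endostatin 4, at 2491 TPM against 888.4 to 1635. No defining marker of these 4 cell types was at 0 in all libraries.

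Markers of other organs also differed in sign between the groups. All 12 hepatocyte markers were positive in endostatin against control, with a median log2 fold change of 3.67, and 7 had an unadjusted p under 0.05; none was called. Alb, the plasma protein albumin, stood at 88.6, 51.0, 10.0 and 18.3 TPM in the controls and at 194, 257, 17.2 and 487 TPM in the endostatin libraries, so endostatin 3 was not among the high ones. Skeletal muscle markers were positive for 0 of 8 tested (median -2.78), and oviduct and uterus markers for 1 of 9 (median -0.79). By edgeR 3 and 1 of them had an unadjusted p under 0.05, and none was called. In batches 1 and 2 the medians were 1.80 and 5.94 for hepatocyte markers. They were -1.34 and -4.31 for skeletal muscle and 0.24 and -1.91 for oviduct and uterus markers. The part of these cells and organs in the levels of the 8 genes was not tested.

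**Figure D4:**
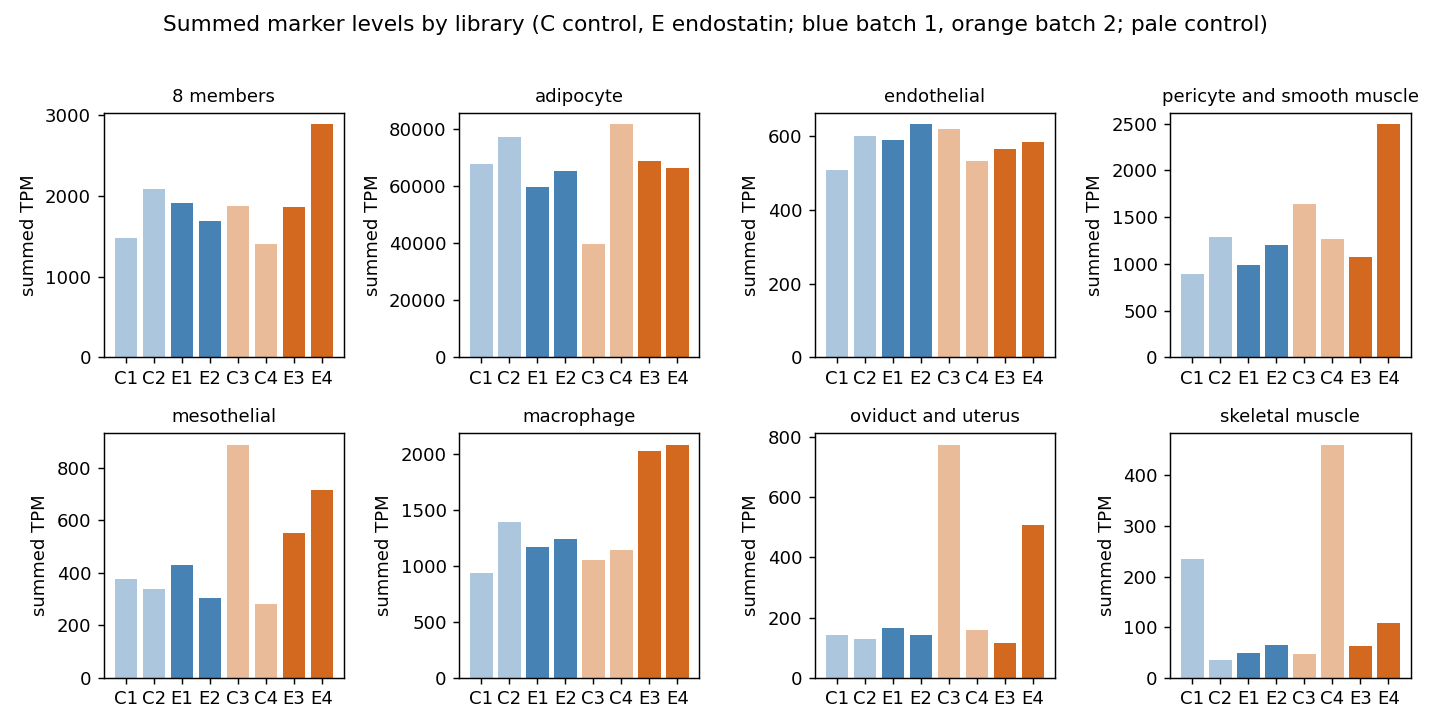
Summed TPM per library of the 8 genes and of marker lists of other cell types and organs, with batch 1 in blue, batch 2 in orange and controls pale; bars start at 0. The 8 genes reach 2880 TPM in endostatin 4 against 1406 to 2077 in the others. Most of that sum is Dcn, at 1922.5 TPM in endostatin 4 and 913.8 to 1414.5 TPM in the other libraries. Macrophage markers are at 2028 and 2088 TPM in endostatins 3 and 4 and at 1394 or less in the others.

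Between batches themselves the 8 genes were close to level. The log2 fold change of batch 2 against batch 1 ran from -0.06 ± 0.23 for Dcn to 0.26 ± 0.19 for Pdgfra, with a median of 0.10. None of the 8 was called, against 0.0395% of all tested genes, and none had an unadjusted p under 0.05, against 9.96% of all tested genes. The signs of these small differences turned under some settings for Dpp4, Pi16, Ly6a, Dcn, Lum and Dlk1.

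The libraries took unequal parts in this. After each gene's mean log2 CPM over the 8 libraries was taken off, endostatin 4 was above the mean for 8 of 8 genes, by 0.49 on average. Endostatin 3 was next at 0.16, and control 4 was lowest at -0.27 with 1 of 8 genes above its mean. Control 1 (-0.18) and endostatin 2 (-0.10) also had 1 of 8 genes above the mean, and control 3 (-0.18) had 3 of 8. Control 2 and endostatin 1 were near the mean, at 0.07 and 0.02. Endostatin 4 was the highest of the 8 libraries for Pdgfra, Dpp4, Ly6a, Dcn and Lum, 5 of 8 genes against 17.5% of all tested genes. Control 4 was the lowest for Dpp4, Cd34 and Dcn, 3 of 8 against 13.2%.

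**Figure D5:**
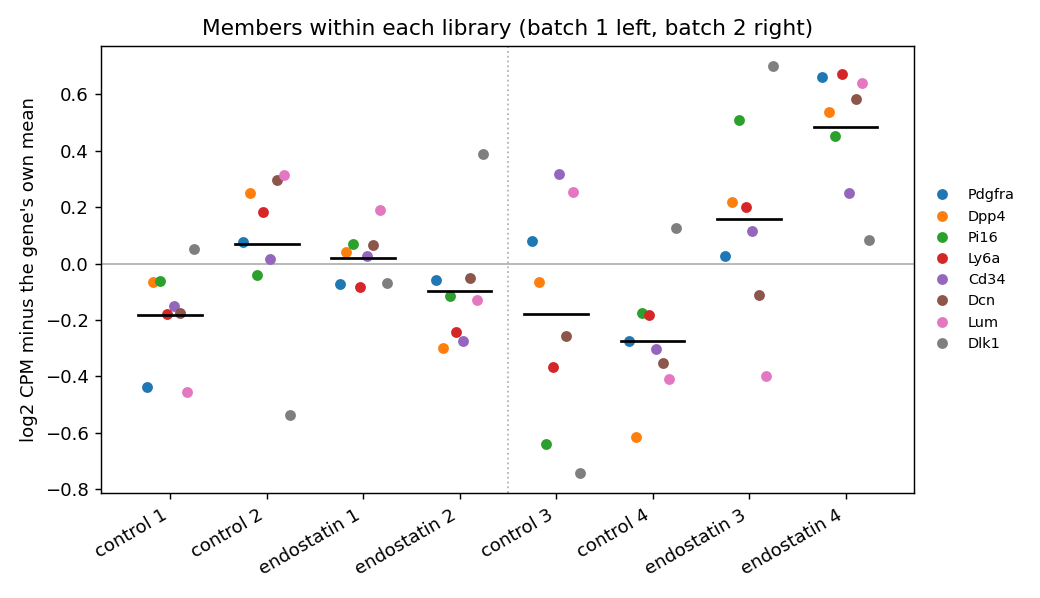
Log2 CPM of each gene minus its own mean over the 8 libraries, with a black bar for the mean of the 8 genes in each library; batch 1 is left of the dotted line. Endostatin 4 has all 8 points above 0, and control 3 is split, with Cd34 and Lum above 0 and Dlk1 and Pi16 lowest.

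The members did not vary as one. By the root mean square distance of these centred values over the 8 libraries, Ly6a and Dcn were closest (0.165 log2 units), followed by Pdgfra and Dcn (0.187) and Dpp4 and Dcn (0.192). Lum and Dlk1 were farthest apart (0.717). Control 3 and endostatin 3 spread them widely: in control 3 Cd34 was 0.32 above its mean and Dlk1 at -0.74, and in endostatin 3 Dlk1 was 0.70 above and Lum at -0.40. Lum and Dcn, side by side on the chromosome, were 0.237 apart.

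Relative to Adipoq, control 3 looked different again because its Adipoq was 1142 CPM, the lowest of all libraries. Dcn TPM was 26.1%, 36.3%, 48.4% and 19.7% of Adipoq TPM in the controls and 37.6%, 30.9%, 23.1% and 50.9% in the endostatin libraries. Control 3 and endostatin 4 were thus high in the same ratio. Pi16 TPM was 1.56%, 1.64%, 2.22% and 1.30% of Adipoq TPM in the controls and 2.14%, 1.68%, 2.21% and 2.84% in the endostatin libraries. The log2 difference of the group means of log2 ratios was 0.40 for Pi16, 0.32 for Dlk1, 0.19 for Ly6a, 0.17 for Pdgfra, 0.15 for Dcn, 0.12 for Dpp4, 0.05 for Lum and -0.06 for Cd34. Among controls alone, the SD of the log2 ratio was 0.24 for Dlk1, 0.32 for Pi16 and 0.44 to 0.85 for the other 6 genes. So 2 differences, those of Pi16 and Dlk1, exceeded the SD among controls, though the groups overlapped for both. The highest control and lowest endostatin ratios were 2.22% and 1.68% for Pi16, and 0.0991% and 0.0867% for Dlk1. Dlk1 TPM in control 2 rests on few reads. By CPM the Dlk1 difference was 0.49, with an SD of 0.37 among controls. These ratios are a description with no test.

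Other genes of the same cells were read from lists of known markers, with the 8 members left out. These lists, like the others here, were written with earlier results of these data known, so their counts are a description only. Genes of the DPP4+ interstitial progenitors, the early cells, had 9 of 11 log2 fold changes above 0 (median 0.29), and 11 of 11 without control 3 and endostatin 4. By edgeR 0 of 11 were called, and 5 had an unadjusted p under 0.05, all higher, as 2.3% of all tested genes did. That count was 0 without endostatin 3 (median 0.16), 1 without control 3 or without control 4, 1 without controls 1 and 4 (8 of 11 positive), 2 without control 1, endostatin 1 or endostatin 4, and 3 without control 3 and endostatin 4. Emilin2, an elastic fibre protein, stood at 110 ± 21 CPM in controls and 168 ± 49 in endostatin libraries (SD, n = 4 each), with a log2 fold change of 0.60 ± 0.21. Mfap5, a microfibril protein, stood at 49.9 ± 6.7 and 66.3 ± 12.7 CPM (0.40 ± 0.16). The other 3, named after their values were seen, were Pcolce2 (0.58 ± 0.23), an enhancer of procollagen processing, Anxa3 (0.36 ± 0.16) and Limch1 (0.29 ± 0.12). Within batches the list's median was 0.07 in batch 1 and 0.42 in batch 2, the same order as for the members. For 3 of 11 the interaction term had an unadjusted p under 0.05 by edgeR, where 0 were called, against 1 by DESeq2. Bmp7 (-1.07 ± 0.65) and Creb5 (-0.00 ± 0.14) were its 2 genes below 0.

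Genes of committed preadipocytes were mixed in sign: 5 of 11 were positive, with a median of -0.01, and none was called. Fabp4 is also among the adipocyte markers above, so the list does not stand for preadipocytes alone. It was below 0, as were Lpl (-0.02 ± 0.34), Cd36 (-0.05 ± 0.26), Pparg (-0.01 ± 0.25), Zfp423 (-0.01 ± 0.22) and Cxcl14. Gpc3 (0.30 ± 0.13) and Icam1 (0.36 ± 0.20) had the smallest p among the higher, and Cxcl14 (-0.43 ± 0.53) and Fabp4 (-0.17 ± 0.33) among the lower. The CD142+ stromal cells, a regulatory population named for the product of F3, had 4 of 6 genes positive with a median of 0.08 (F3 0.12 ± 0.14, Mgp 0.18 ± 0.22, Fmo2 -0.16 ± 0.23, Gdf10 -0.02 ± 0.19). Other mesenchymal surface genes had 6 of 9 positive with a median of 0.08, among them Itgb1 (0.14 ± 0.10), Cd81 (0.16 ± 0.12), Thy1 (-0.09 ± 0.27) and Nt5e (-0.30 ± 0.61). None in either list was called. Whether the lists differ from each other was not tested.

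The matrix and secreted proteins of fibroblasts had 18 of 18 log2 fold changes above 0 (median 0.28), and none was called. Without controls 1 and 4 the count was 14 of 18, and without control 3 and endostatin 4 it was 18 of 18. Loxl1, a crosslinker of elastic fibres, stood at 104 ± 11 CPM in controls and 148 ± 27 in endostatin libraries, with a log2 fold change of 0.49 ± 0.15. Fbn1, the microfibril protein fibrillin-1, stood at 428 ± 53 and 676 ± 221 CPM (0.62 ± 0.23). Col5a1 (0.32 ± 0.13) and Fstl1 (0.35 ± 0.14), named after their values were seen, complete the 4 genes with an unadjusted p under 0.05. This count was 1 without control 3, without control 4, without endostatin 3 or without controls 1 and 4, 2 without control 1 or endostatin 1, and 6 without control 2. The list's median was 0.08 in batch 1 and 0.48 in batch 2. For 5 of 18 the interaction term had an unadjusted p under 0.05 by edgeR, and none was called.

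The genes outside the list whose pattern over the 8 libraries was nearest to the mean of the members were sought among 9984 genes that averaged 10 CPM or more. Lama2, a laminin chain, was nearest at a root mean square distance of 0.050 log2 units, where the median gene was at 0.298. Hacd4 (0.059), Npr1 (0.066), Nsmaf (0.074) and Cpt1a (0.074) followed. Among single members, Ly6a was nearest to Tmeff2 (0.051), Dpp4 to Pkhd1l1 (0.066), Cd34 to Add3 (0.068) and Pdgfra to Ppp1r15a (0.086). Dcn was nearest to Ang (0.092), Pi16 to F13a1 (0.092), a clotting factor gene also made by resident macrophages, and Lum to Casp2 (0.096). Dlk1 had no near gene, the closest being Ntrk2 at 0.175. The points of each comparison are the same 8 libraries and share their depth and makeup.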

How the data were processed

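The authors' deposited files hold Salmon's estimated counts and TPM for 115620 transcripts in each of 8 libraries, per the file headers; the submitters' processing notes name Salmon and GRCm39, with neither a version nor options. TPM in the deposited files is scaled by the authors' run to the same total per library. The deposited lengths (other) served as an offset in 1 alternative. Transcripts were matched without version to GENCODE M21 (113710, 98.35%; the other 1910 kept as they were), and estimated counts and TPM were summed per gene. Rounded counts passing filterByExpr (15184 genes) were scaled by TMM and fitted with edgeR 4.0.16 (R 4.3.3), quasi-likelihood, on batch and treatment. The batch by treatment term came from a second model. All p-values are two-sided; Benjamini-Hochberg adjustment ran over all genes tested, at a threshold of 0.05; the code was tested on simulated data. Alternatives used DESeq2 1.42.0, limma 3.58.1 on voom values or log2(TPM + 0.1), other size factors, no filter, length offsets, no batch term, a replicate block and left-out libraries; 1, without controls 1 and 4, was chosen after seeing the data. The members, gene lists and tests were chosen with earlier results of these data known. Named genes are the 8 members, Adipoq, up to 2 per list and direction with the smallest p and at least 1 CPM, and the nearest genes in pattern (log2 CPM with a prior count of 2). M21 belongs to an older build and served for names and transcript sequences only. Marker lists for T and NK cells, B cells, mast cells and Schwann cells summed to 12.2 to 27.1, 11.3 to 38.5, 29.5 to 72.4 and 28.4 to 43.4 TPM per library. Intervals and floors cover counting error or the fit only.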

Additional observations from a re-analysis of the deposited data

Results flagged for a closer look

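Pdgfra stood at 302.9 CPM in endostatin 4, while the other 3 endostatin libraries lay between 182 and 195 CPM; the gap to the nearest library was a larger share of the group's range than Dixon's critical value for 4 samples. Such a flag arises by chance in about 1 in 20 groups. Endostatin 4 was also the highest library for Dpp4, Ly6a, Dcn and Lum. Its summed markers were the highest of the endostatin group in every list of cell types and organs but adipocyte, endothelial, and T and NK cell. For macrophage markers it was close to endostatin 3, at 2088 against 2028 TPM. The part of these cells and organs in the Pdgfra value was not tested.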

How the results depend on the processing

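None of the 8 genes was called at an adjusted p under 0.05 in any comparison under any setting run. For endostatin against control the number of called genes was 0 by edgeR, 4 by DESeq2 and 1 by limma-voom with sample quality weights, and 0 to 0 leaving out 1 library. For batch 2 against batch 1 it was 6, against 11 without the low-count filter, 171 by DESeq2, 20 by limma-voom with sample quality weights, 10 by limma on log2(TPM + 0.1), 27 without control 3 and endostatin 4, 0 without controls 1 and 4, and 0 to 18 leaving out 1 library. It was 0 without control 1, control 2, endostatin 2 or endostatin 3, 3 without endostatin 1 and 18 without endostatin 4. For the difference between batches it was 0, against 26 by DESeq2 and 1 by limma on log2(TPM + 0.1); the cause was not tested.

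Over 19 settings the log2 fold change of endostatin against control ran from 0.25 to 0.58 for Pi16, 0.35 to 0.98 for Dlk1, 0.08 to 0.43 for Pdgfra, 0.03 to 0.41 for Dpp4, 0.03 to 0.42 for Dcn and 0.01 to 0.44 for Ly6a. The signs that turned were those of Cd34 (-0.13 without controls 1 and 4; -0.084 to 0.14 leaving out 1 library) and Lum (-0.16 without controls 1 and 4; -0.11 to 0.35 leaving out 1 library). In the batch comparison signs turned for Dpp4 (-0.07 with length offsets, -0.14 without control 3 and endostatin 4, -0.12 to 0.24 leaving out 1 library), Lum (-0.12 by limma-voom, -0.41 without control 3 and endostatin 4, -0.18 to 0.27 leaving out 1 library), Dcn (0.054 on the TPM scale, -0.28 to 0.11 leaving out 1 library) and Dlk1 (-0.060 with length offsets, -0.058 to 0.29 leaving out 1 library). Leaving out 1 library also turned Pi16 (-0.047 to 0.26) and Ly6a (-0.018 to 0.33). In the difference between batches they turned for Lum (-0.0081 on the TPM scale, -0.042 without control 3 and endostatin 4, -0.41 to 0.63 leaving out 1 library), Cd34 (-0.077 to 0.53) and Dlk1 (-0.11 to 0.81).

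On the TPM scale the median of all genes was 0.12 in the batch comparison, against 0.01 on the count scale, and -0.12 in the difference between batches, against -0.02. Deviations of same-numbered libraries from their group means were correlated with mixed signs (0.211, 0.144, -0.073 and -0.295). With 4 libraries per group this cannot tell whether the numbers mark paired samples. With a replicate block in place of batch 0 genes were called by edgeR, 307 had an unadjusted p under 0.05, and Pi16 was at 0.46. Under that block 1 of 11 DPP4+ progenitor genes and 1 of 18 matrix genes had an unadjusted p under 0.05. The log2 group differences of the ratios to Adipoq moved between CPM and TPM by less than the SD of the log2 ratio among controls. The ratios themselves moved more: Pdgfra averaged 9.43% of Adipoq by CPM and 2.01% by TPM in the controls. Dlk1 is the member that depth limits.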
